A study of Mus musculus with 24 samples.

Results

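Hypoxia-inducible factors (HIFs) and the enzymes that mark them for destruction were followed in RNA-sequencing of sorted cells from the mouse ileum, as 9 genes of the 39056 in the deposited count table. The genes were 3 HIF alpha subunits (Hif1a, Epas1 and Hif3a), their partner Arnt, 3 prolyl hydroxylases (Egln1, Egln2 and Egln3), Vhl, and the target gene Vegfa. They were chosen by name as one pathway, and the special attention to Epas1 and Egln3 was chosen from their measured levels in these same libraries, so values of Epas1 and Egln3 are given as a description with no test. The other 7 genes were tested. All 9 passed the filter on low counts in the comparisons made.

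Under normal oxygen, prolyl hydroxylases use oxygen and iron to modify HIF alpha proteins, and the VHL protein then recognises the modified subunits and directs them to the proteasome. When oxygen falls, the alpha subunits accumulate, pair with ARNT and switch on genes for glucose uptake, glycolysis, iron handling and vessel growth. HIF-1 alpha is found in most cells, HIF-2 alpha (the product of Epas1) is known from vessel lining and from iron absorption in the gut, and the mucosa of the intestine is a tissue of low oxygen. mRNA levels do not report this protein-level control.

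RNA came from live CD45+ (hematopoietic) and CD45- cells sorted from the ileum, with the epithelial wash and the digested lamina propria mixed before sorting. There were 24 libraries, 3 for each of 8 groups, from C57BL/6 mice aged 9.0 to 10.3 weeks. Every mouse carried Il4ra flanked by loxP sites on both alleles. Mice labelled Il4ra f/f kept the IL-4 receptor alpha gene, and mice with Vil1cre (Il4ra ΔIEC) lost it in intestinal epithelial cells, where the villin promoter drives the recombinase. Each was combined with Hoil1+/+ or Hoil1-/-, the latter a mutant of Rbck1 that still makes an N-terminal piece of HOIL1, a component of a linear ubiquitin ligase. The labels do not say which libraries share a mouse, so the spread between libraries may be partly technical.

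Total counts ran from 14938629 to 76807504 in CD45+ and from 6028275 to 68345191 in CD45- libraries. Rbck1 lay between 0 and 15.9 CPM (the usual unit of read counts scaled to the library total) in the 12 Hoil1-/- libraries and between 72.9 and 159 CPM in the 12 Hoil1+/+ libraries. Ptprc, which encodes CD45, lay between 250 and 757 CPM in CD45+ cells and at most at 16.2 CPM in CD45- cells. The study left out 3 libraries as outliers, CD45+ Hoil1-/-Il4ra f/f replicate 1, CD45+ Hoil1-/-Il4ra ΔIEC replicate 3 and CD45- Hoil1-/-Il4ra f/f replicate 3. Tests used the 21 kept libraries and per-library values are given for all 24. The mix of CD45- cells differed between libraries: summed over 9 epithelial markers the range was 1585 to 16363 CPM, and over 10 endothelial markers 2297 to 16093 CPM. The mix of CD45+ cells differed too, with summed T cell markers at 145 to 1773 CPM and plasma cell markers at 8429 to 47519 CPM. Immunoglobulin genes took 13.2% to 46.4% of the counts in CD45+ and at most 1.75% in CD45- libraries. In such bulk libraries, fewer cells of a type and less RNA per cell cannot be told apart.

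The upstream sequences of the 3 prolyl hydroxylase genes are shown because Egln1 and Egln3 are known HIF targets and the core of the HIF binding site, ACGTG or GCGTG, can be read in them. Each line gives the 250 bases before the RefSeq gene start on the gene's strand (GRCm38.p6), with every core motif on either strand in capitals.
Egln1 (chr8:124949255-124949504, minus strand): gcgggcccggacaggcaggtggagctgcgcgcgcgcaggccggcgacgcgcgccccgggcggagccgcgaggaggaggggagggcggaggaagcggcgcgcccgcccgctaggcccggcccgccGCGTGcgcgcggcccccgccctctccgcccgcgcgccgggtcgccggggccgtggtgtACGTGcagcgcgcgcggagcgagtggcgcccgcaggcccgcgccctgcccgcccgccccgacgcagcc
Egln2 (chr7:27166803-27167052, minus strand): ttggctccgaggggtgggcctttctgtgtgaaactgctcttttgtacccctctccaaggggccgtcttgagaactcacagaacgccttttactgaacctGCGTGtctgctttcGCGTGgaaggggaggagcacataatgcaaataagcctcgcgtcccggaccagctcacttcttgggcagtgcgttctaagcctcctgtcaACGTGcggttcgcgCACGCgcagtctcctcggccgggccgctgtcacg
Egln3 (chr12:54203875-54204124, minus strand): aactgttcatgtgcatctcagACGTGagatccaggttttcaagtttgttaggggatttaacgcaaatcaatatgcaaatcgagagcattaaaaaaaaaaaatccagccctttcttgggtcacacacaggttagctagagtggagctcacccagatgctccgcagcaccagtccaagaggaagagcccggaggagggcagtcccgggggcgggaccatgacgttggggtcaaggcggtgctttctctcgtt

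The Egln1 window held 2 cores, at 126 and 68 bases before the start, the Egln2 window 4, and the Egln3 window 1, at 229 bases. RefSeq windows were matched for 8 of the 9 genes, 10 windows in all, and 8 of these 10 held at least 1 core. Over all 32851 windows of the same length the share with at least 1 core was 38.6%, so a match is common and describes the letters alone. The GC content was 86.0% for Egln1, 59.2% for the Egln2 window shown and 50.8% for Egln3. No window was matched for Epas1.

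**Figure D1:**
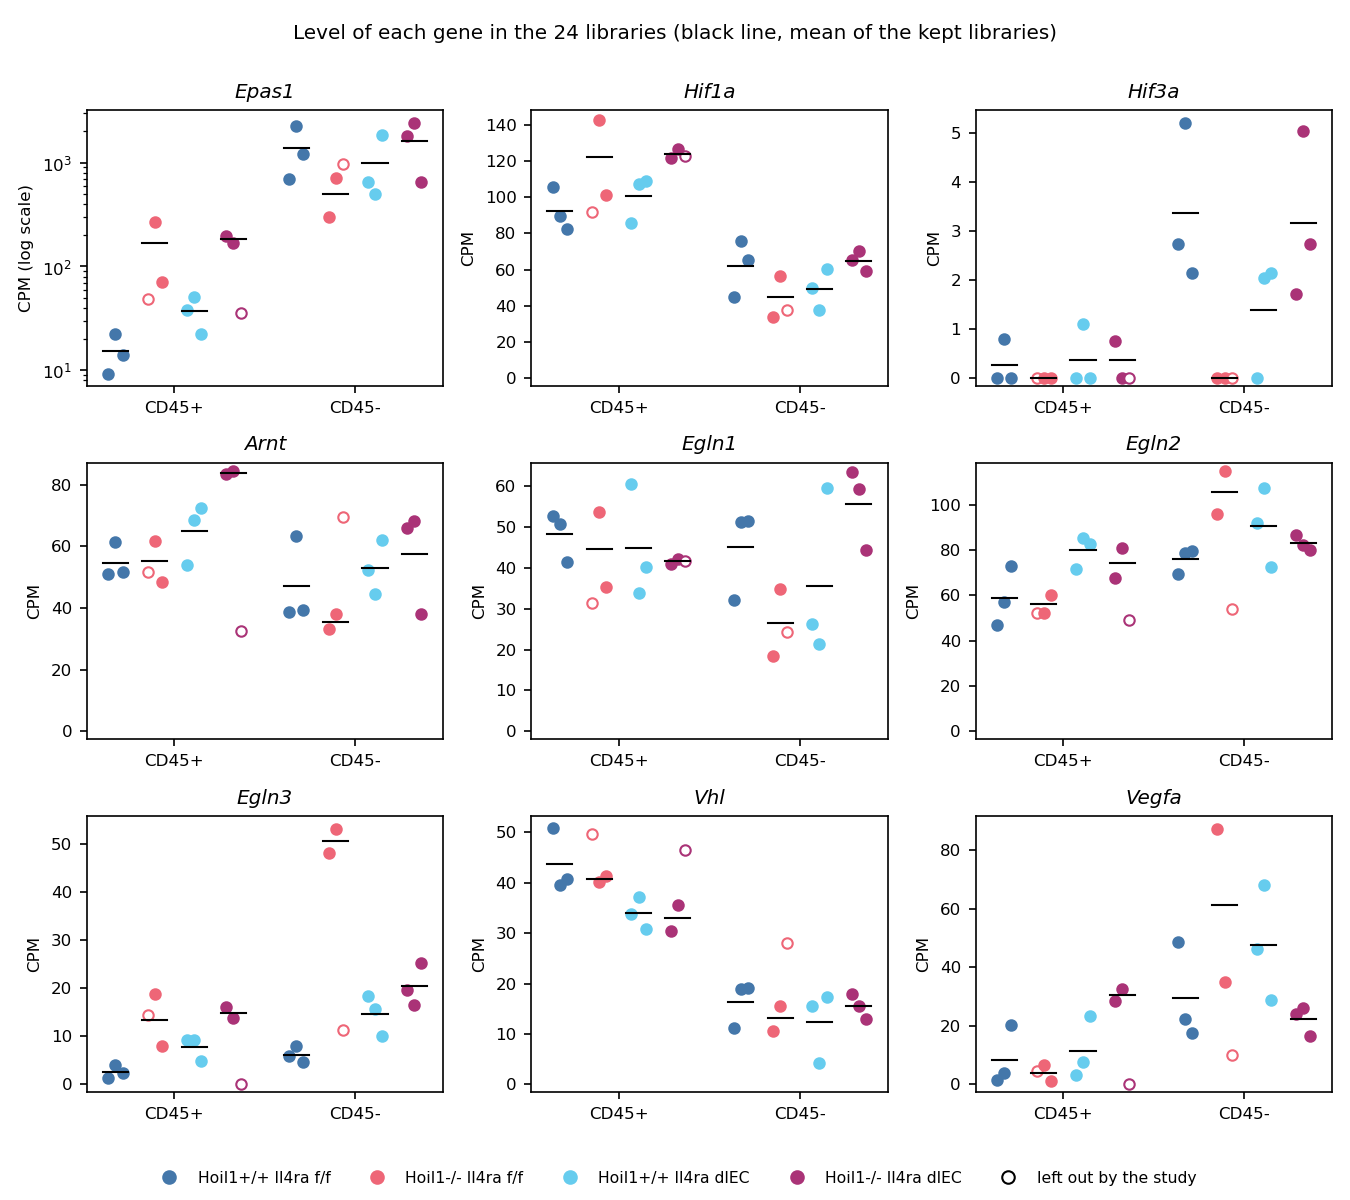
CPM (read counts scaled to the library total and by TMM over all libraries) of the 9 genes in 24 libraries, with one point per library, open points for the 3 libraries the study left out and a black line for the mean of the kept libraries of a group. The Epas1 axis is logarithmic. Epas1 lies between 9.26 and 268 CPM in CD45+ and between 300 and 2427 CPM in CD45- cells, and Egln3 reaches 48.1 and 53.1 CPM in the kept CD45- Hoil1-/-Il4ra f/f libraries.

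Epas1 encodes HIF-2 alpha and lies on chromosome 17 from 86753700 to 86833410 (GRCm38, plus strand). In CD45- cells it read 699, 2251 and 1203 CPM in Hoil1+/+Il4ra f/f, and 300, 707 and, in the left-out library, 969 CPM in Hoil1-/-Il4ra f/f. With Il4ra ΔIEC it read 648, 499 and 1848 CPM in Hoil1+/+ and 1801, 2427 and 646 CPM in Hoil1-/-. All 12 CD45- values lay above all 12 CD45+ values, and the 4 CD45- groups overlapped one another.

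In CD45+ cells Epas1 read 9.26, 22.6 and 14.2 CPM in Hoil1+/+Il4ra f/f, and 268, 70.6 and, in the left-out library, 48.9 CPM in Hoil1-/-Il4ra f/f. With Il4ra ΔIEC it read 38.5, 50.8 and 22.5 CPM in Hoil1+/+ and 198, 167 and, in the left-out library, 35.4 CPM in Hoil1-/-. The 3 Hoil1-/-Il4ra f/f libraries lay above the 3 Hoil1+/+Il4ra f/f libraries. With Il4ra ΔIEC the 2 kept Hoil1-/- libraries lay above the 3 Hoil1+/+ libraries, and the left-out library fell within the Hoil1+/+ range.

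Ordered by group mean, the 4 CD45- groups came first (1625, 1384, 998 and 659 CPM for Hoil1-/-Il4ra ΔIEC, Hoil1+/+Il4ra f/f, Hoil1+/+Il4ra ΔIEC and Hoil1-/-Il4ra f/f). They were followed by CD45+ Hoil1-/-Il4ra ΔIEC at 134 CPM, Hoil1-/-Il4ra f/f at 129 CPM, Hoil1+/+Il4ra ΔIEC at 37.3 CPM and Hoil1+/+Il4ra f/f at 15.4 CPM. These means are over all 24 libraries. Among neighbours in this order, the ranges over all libraries were separate at 1 step, between the lowest CD45- and the highest CD45+ group. Among the kept libraries alone, CD45+ Hoil1-/-Il4ra f/f (70.6 and 268 CPM) also lay above CD45+ Hoil1+/+Il4ra ΔIEC (22.5 to 50.8 CPM). The fitted log2 fold change of Epas1 between CD45+ and CD45- cells was -3.99 (SE 0.41, 21 libraries). Between Hoil1-/- and Hoil1+/+ it was 3.45 (SE 0.58) in CD45+ Il4ra f/f cells and 2.27 (SE 0.56) in CD45+ Il4ra ΔIEC cells. Without replicate 2 of CD45+ Hoil1-/-Il4ra f/f the first of these was 2.18. In CD45- cells the same difference was -1.46 (SE 0.74) with Il4ra f/f and 0.71 (SE 0.63) with Il4ra ΔIEC.

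The Epas1 values were set beside the endothelial markers of the same library, because HIF-2 alpha is known from endothelium. In CD45- cells Epas1 amounted to between 9.87% and 18.1% of the summed endothelial markers. Relative to Cdh5, the endothelial cadherin, Epas1 lay between 1.22 and 1.92 CPM per CPM in all 12 CD45- libraries. The 4 libraries with the highest Epas1 were also the 4 with the highest endothelial sums.

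In CD45+ cells Cdh5 was at most at 13.1 CPM and was not counted in 2 of 12 libraries. In the 10 others Epas1 was 3.06 to 61.0 CPM per CPM of Cdh5, above every CD45- ratio. Cdh5 stood at 4.4 CPM in the CD45+ library with the highest Epas1 (268 CPM, replicate 2 of Hoil1-/-Il4ra f/f). The CD45+ endothelial sum of 62.8 to 280 CPM came mostly from Pecam1 (44.8 to 117 CPM), which leukocytes also carry, and Plvap (0 to 109 CPM). As a share of that sum, Epas1 was 9.18% to 43.4% in Hoil1+/+ and 52.2% to 211% in Hoil1-/- libraries. The Hoil1+/+ libraries at 9.18%, 11.4% and 16.1% were not above the CD45- range of 9.87% to 18.1%.

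Markers of group 2 innate lymphoid cells (ILC2) moved with Epas1 in the CD45+ libraries. The summed level of 9 ILC2 markers was 34.3 to 132 CPM in the 6 Hoil1+/+ libraries and 124 to 672 CPM in the 6 Hoil1-/- libraries, and Epas1 amounted to between 27.0% and 49.1% of that sum in all 12. The study itself named 4 of these 9 markers (Nmur1, Klrg1, Il5 and Il17rb) as differing by Hoil1 genotype in these CD45+ libraries. It named Epas1 on the same list, so Epas1 and these markers are not separate observations. In whole ileum tissue, which also holds the CD45- cells with their higher Epas1, the study detected no Epas1 difference by quantitative PCR. With the 4 markers removed, the ILC2 sum was 24.2 to 104 CPM in Hoil1+/+ and 58.0 to 404 CPM in Hoil1-/-. In CD45- cells the ILC2 sum was at most 35.0 CPM, with Klrg1, Il5, Il13 and Calca at 0 in all 12 libraries. By flow cytometry the study found a KLRG1+ subset of ILC2 to be a larger share of CD45+ cells in Hoil1-/- ileum. This held with Il4ra ΔIEC too. From published data the study also named Epas1 as a gene that ILC2 and type 2 helper T cells can switch on when activated. The part of ILC2 number in the CD45+ Epas1 values was not tested here.

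**Figure D2:**
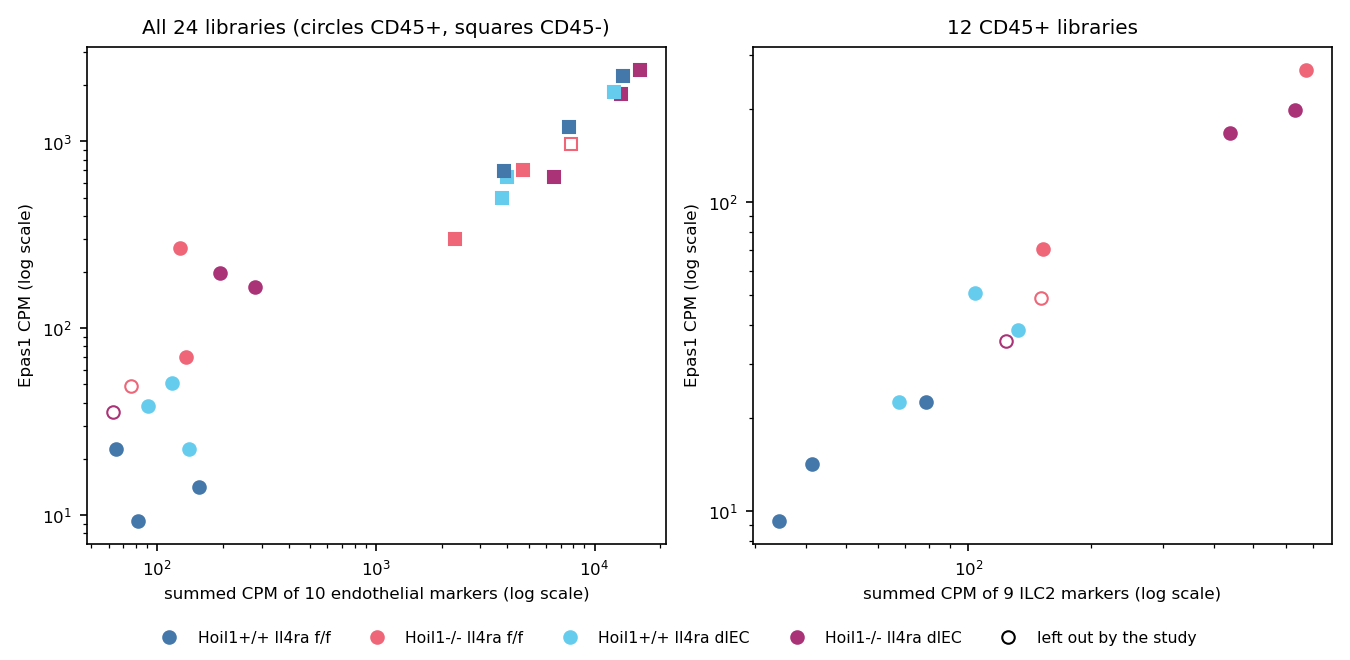
Epas1 CPM against the summed CPM of 10 endothelial markers in 24 libraries (left, circles CD45+ and squares CD45-) and of 9 ILC2 markers in the 12 CD45+ libraries (right), all axes logarithmic, open points for libraries the study left out. The CD45- points lie along 1 line (9.87% to 18.1% of the endothelial sum). The CD45+ points lie to the left of the CD45- points, at 9.18% to 211% of the endothelial sum. Hoil1+/+ libraries at 9.18%, 11.4% and 16.1% are within or below the CD45- range. The CD45+ points follow the ILC2 sum (27.0% to 49.1% of it).

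The genes whose levels were most like Epas1 were listed by Pearson's r of log2(CPM + 1) over the kept libraries, among genes averaging at least 10 CPM. The libraries share cell mixtures and depth, so these are descriptions. In the 10 CD45+ libraries, among 8696 genes, they were Il17rb (r = 0.97), Stab2 (0.96), Gata3 (0.96), Dkk3 (0.95) and Chdh (0.95). With the left-out CD45+ libraries added, the r values were 0.91, 0.81, 0.91, 0.95 and 0.94 in the same order. Il17rb, the receptor subunit for IL-25, and Gata3, the master transcription factor of type 2 lymphocytes, stand on the ILC2 list. Stab2, Dkk3 and Chdh stand on none of the cell type marker lists. In the 11 CD45- libraries, among 9330 genes, they included Fli1 (0.99), Anp32a (0.99), Afap1l1 (0.99) and Cdh5 (0.99). Fli1 is an endothelial and hematopoietic transcription factor.

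Hif1a, which encodes HIF-1 alpha, lies on chromosome 12 from 73901375 to 73947530 (plus strand). In CD45+ cells it read 105, 89.4 and 82.4 CPM in Hoil1+/+Il4ra f/f and 85.7, 107 and 109 CPM in Hoil1+/+Il4ra ΔIEC. It read 143, 101 and, left out, 91.9 CPM in Hoil1-/-Il4ra f/f, and 122, 127 and, left out, 122 CPM in Hoil1-/-Il4ra ΔIEC. In CD45- cells the 12 values ran from 33.6 to 75.8 CPM, all below the lowest CD45+ value.

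Hif1a was 1.99-fold higher in CD45+ than in CD45- cells (log2 fold change 0.99, SE 0.14, adjusted p = 1.711e-05, edgeR's quasi-likelihood test with Benjamini-Hochberg adjustment over 18778 genes). In that comparison 49.6% of all genes tested passed the threshold of 0.05. Hif1a's exons share 330 bases with an antisense gene and 148 with another gene on the same strand, and the counting options are not given in the sources used here, so a small part of its count is uncertain.

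The 2 alpha subunits stood in opposite order in the fractions when compared per kilobase of exon. In CD45- cells Epas1 per kilobase was 9.40 to 36.4 times Hif1a in the same library. In CD45+ cells it was 0.093 to 0.50 times Hif1a in the 6 Hoil1+/+ libraries. In the 6 Hoil1-/- libraries the ratio was 0.30 to 1.98, and in 3 of them, all kept, it was above 1.

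Hif3a, an alpha subunit that lacks the main activation domain and is known as a modulator of the others, was the least abundant gene of the set. It had no count in 9 of 12 CD45+ libraries, and the other 3 had 0.755, 0.800 and 1.10 CPM (21, 63 and 31 counts). In CD45- cells it read 2.75, 5.20 and 2.14 CPM in Hoil1+/+Il4ra f/f, and no count in the 3 libraries of Hoil1-/-Il4ra f/f, where 3 counts correspond to 0.0989 to 0.334 CPM. With Il4ra ΔIEC it read 0, 2.03 and 2.14 CPM in Hoil1+/+ and 1.72, 5.03 and 2.73 CPM in Hoil1-/-. With Il4ra f/f the Hoil1+/+ mean was 14.3-fold above the level of 3 counts in the shallower kept Hoil1-/- library. That floor covers counting error alone, so it sets no lower bound on the Hoil1 difference.

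That difference did not pass edgeR's quasi-likelihood test (adjusted p = 0.274, and 0.0018 to 0.644 over the alternatives). It passed with DESeq2 and with edgeR's likelihood ratio test. Libraries jumped from 0 to 16 or more counts with little between, and the reads carry no molecular identifiers, so counts of this size do not stand for as many molecules.

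Arnt encodes the partner of all HIF alpha subunits. The 12 CD45+ values ran from 32.6 to 84.4 CPM and the 12 CD45- values from 33.1 to 69.5 CPM, so the fractions overlapped. The fitted difference was 0.42 on the log2 scale (SE 0.14, adjusted p = 0.0184, edgeR's quasi-likelihood test with Benjamini-Hochberg adjustment), and it did not pass over all 24 libraries (0.23) or without replicate 1 of CD45- Hoil1-/-Il4ra f/f (0.40).

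Among the prolyl hydroxylases, Egln1 (PHD2) is the main oxygen sensor for HIF-1 alpha, Egln2 (PHD1) is its relative of wide expression, and Egln3 (PHD3) is itself induced by HIF in many cells. Per kilobase of exon, Egln2 made up 45.8% to 76.3% of the sum of the 3 in all 24 libraries. Egln1 made up 8.90% to 45.8% and Egln3 0% to 31.4%. The highest Egln3 shares, 31.4% and 28.2%, belonged to the kept CD45- Hoil1-/-Il4ra f/f libraries, in which the Egln1 shares were 8.90% and 13.7%.

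Egln3 lies on chromosome 12 from 54178981 to 54203860 (minus strand). In CD45- cells with Il4ra f/f it read 5.99, 8.01 and 4.63 CPM in Hoil1+/+, and 48.1, 53.1 and, in the left-out library, 11.4 CPM in Hoil1-/-. With Il4ra ΔIEC it read 18.3, 15.8 and 10.0 CPM in Hoil1+/+ and 19.5, 16.4 and 25.3 CPM in Hoil1-/-. With Il4ra f/f each Hoil1-/- library lay above every Hoil1+/+ library, the left-out one by the least, whereas with Il4ra ΔIEC the Hoil1 genotypes overlapped.

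In CD45+ cells Egln3 read 1.38, 3.98 and 2.43 CPM in Hoil1+/+Il4ra f/f, and 18.9, 7.95 and, left out, 14.3 CPM in Hoil1-/-Il4ra f/f. With Il4ra ΔIEC it read 9.14, 9.31 and 4.84 CPM in Hoil1+/+ and 16, 13.8 and, in the left-out library, 0 CPM in Hoil1-/-. The Il4ra f/f groups did not overlap. With Il4ra ΔIEC the 2 kept Hoil1-/- libraries lay above the Hoil1+/+ libraries and the left-out library, which had 32434244 counts and none of Egln3 or Vegfa, lay below them.

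In both fractions Egln3 was lowest in Hoil1+/+Il4ra f/f, with a mean of 6.21 CPM (SD 1.70, n = 3) in CD45- and 2.60 CPM (SD 1.30, n = 3) in CD45+ cells. The fitted log2 fold change between Hoil1-/- and Hoil1+/+ in CD45- cells was 3.04 (SE 0.40) with Il4ra f/f and 0.49 (SE 0.35) with Il4ra ΔIEC, a difference of -2.54 (SE 0.53). Over all CD45- libraries the first was 2.62. In CD45+ cells it was 2.35 (SE 0.55) with Il4ra f/f and 0.92 (SE 0.54) with Il4ra ΔIEC, and the former was 1.59 without replicate 2 of Hoil1-/-Il4ra f/f. Ordered by group mean over all libraries, CD45- Hoil1-/-Il4ra f/f came first at 37.5 CPM (SD 22.8, n = 3) and CD45+ Hoil1+/+Il4ra f/f last. Ranges of neighbours in that order overlapped at every step but the last, where CD45- Hoil1+/+Il4ra f/f lay above CD45+ Hoil1+/+Il4ra f/f.

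Epithelial and tuft cell markers also differed between the CD45- libraries. In the 2 kept Hoil1-/-Il4ra f/f libraries the epithelial sum was 16363 and 15069 CPM and the sum of 5 tuft cell markers 420 and 566 CPM. The other 10 CD45- libraries had tuft cell sums of 22.9 to 57.0 CPM and epithelial sums of 1585 to 14629 CPM. Replicates 1 and 2 of Hoil1+/+Il4ra ΔIEC, with epithelial sums of 14629 and 12817 CPM, had 18.3 and 15.8 CPM of Egln3. As a share of the epithelial sum, Egln3 was 0.294% and 0.353% in the kept Hoil1-/-Il4ra f/f libraries, beside 0.317% to 1.04% in Hoil1-/-Il4ra ΔIEC and 0.0664% to 0.332% in the 6 Hoil1+/+ libraries. The part of epithelial and tuft cell number in the Egln3 values was not tested.

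**Figure D3:**
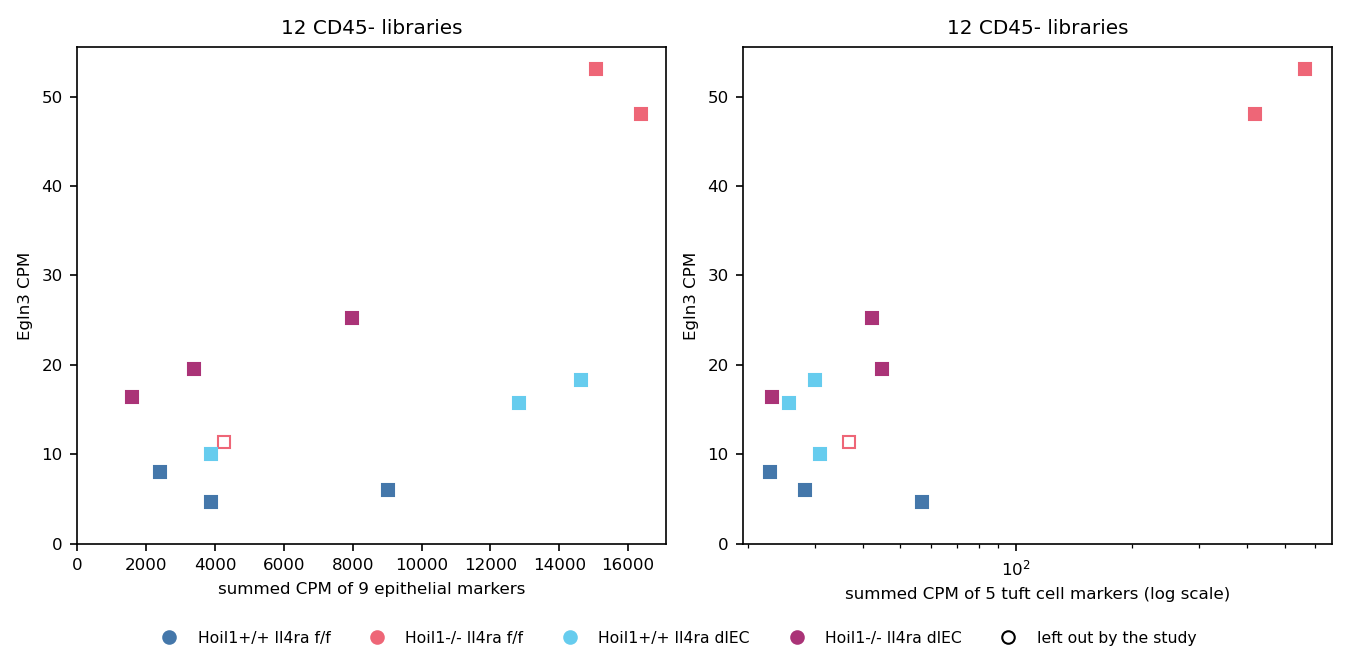
Egln3 CPM in the 12 CD45- libraries against the summed CPM of 9 epithelial markers (left) and of 5 tuft cell markers (right, logarithmic axis), with the library the study left out as an open square. The 2 kept Hoil1-/-Il4ra f/f libraries stand apart at 48.1 and 53.1 CPM of Egln3 and at 420 and 566 CPM of tuft cell markers, while libraries with like epithelial sums of 14629 and 12817 CPM had 18.3 and 15.8 CPM of Egln3.

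The genes whose levels were most like Egln3 in the 11 kept CD45- libraries were H2-T23 (r = 0.92), Pkm (0.88), Slc16a3 (0.88), Stx3 (0.87) and Ftl1 (0.87). With the left-out CD45- library added, the r values were 0.89, 0.69, 0.88, 0.72 and 0.78 in the same order. Pkm encodes pyruvate kinase and Slc16a3 the lactate exporter MCT4, and both stand on the list of glycolytic HIF targets. In the 10 kept CD45+ libraries they were Dkk3 (0.98), Gata3 (0.97), Epas1 (0.96), Ifi206 (0.96) and Znrf1 (0.95). With the left-out CD45+ libraries added, the r of Egln3 with Epas1 was 0.73 over 12 libraries.

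Egln1 overlapped between the fractions, with 31.4 to 60.4 CPM in CD45+ and 18.4 to 63.4 CPM in CD45- cells, and did not pass the test (log2 fold change 0.18, SE 0.20, adjusted p = 0.513, edgeR's quasi-likelihood test with Benjamini-Hochberg adjustment). In CD45- cells its group mean was lowest in Hoil1-/-Il4ra f/f, where Egln3 was highest, with 18.4, 34.7 and, in the left-out library, 24.3 CPM. In Hoil1+/+Il4ra f/f it read 32.2, 51.3 and 51.5 CPM, which overlapped.

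Egln2 read 46.9 to 85.4 CPM in CD45+ and 53.9 to 115 CPM in CD45- libraries. It was lower in CD45+ cells, by a log2 fold change of -0.41 (SE 0.11, adjusted p = 0.006145, edgeR's quasi-likelihood test with Benjamini-Hochberg adjustment), although the ranges overlapped.

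Vhl, the substrate-recognition subunit of the ubiquitin ligase that removes hydroxylated HIF alpha, had fractions that did not overlap, as did Hif1a and Epas1. The 12 CD45+ values lay between 30.5 and 50.9 CPM and the 12 CD45- values between 4.2 and 28.0 CPM. Vhl was 2.63-fold higher in CD45+ cells (log2 fold change 1.39, SE 0.21, adjusted p = 3.152e-05, edgeR's quasi-likelihood test with Benjamini-Hochberg adjustment).

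Vegfa, the main growth factor for vessels and a classical HIF target, was lower in CD45+ cells by a log2 fold change of -1.85 (SE 0.49, adjusted p = 0.0048, edgeR's quasi-likelihood test with Benjamini-Hochberg adjustment). Its libraries were scattered more widely than those of the other tested genes except Hif3a. In CD45+ cells it read 1.34, 3.76 and 20.3 CPM in Hoil1+/+Il4ra f/f, 6.68, 1.09 and, left out, 4.70 CPM in Hoil1-/-Il4ra f/f, 3.08, 7.74 and 23.4 CPM in Hoil1+/+Il4ra ΔIEC, and 28.4, 32.7 and, left out, 0 CPM in Hoil1-/-Il4ra ΔIEC. In CD45- cells it read 48.7, 22.2 and 17.4 CPM in Hoil1+/+Il4ra f/f, 87.3, 35.0 and, left out, 10.1 CPM in Hoil1-/-Il4ra f/f, 46.2, 68.3 and 28.9 CPM in Hoil1+/+Il4ra ΔIEC, and 24.1, 26.2 and 16.7 CPM in Hoil1-/-Il4ra ΔIEC.

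In CD45- cells the 3 Hoil1-/-Il4ra ΔIEC libraries lay below the 3 Hoil1+/+Il4ra ΔIEC libraries, and the Il4ra f/f groups overlapped. The Hoil1 difference was 1.08 (SE 0.54) with Il4ra f/f and -1.10 (SE 0.49) with Il4ra ΔIEC on the log2 scale. Neither these nor their difference of -2.18 (SE 0.73) passed edgeR's quasi-likelihood test with Benjamini-Hochberg adjustment (adjusted p = 0.401, 0.628 and 0.165).

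**Figure D4:**
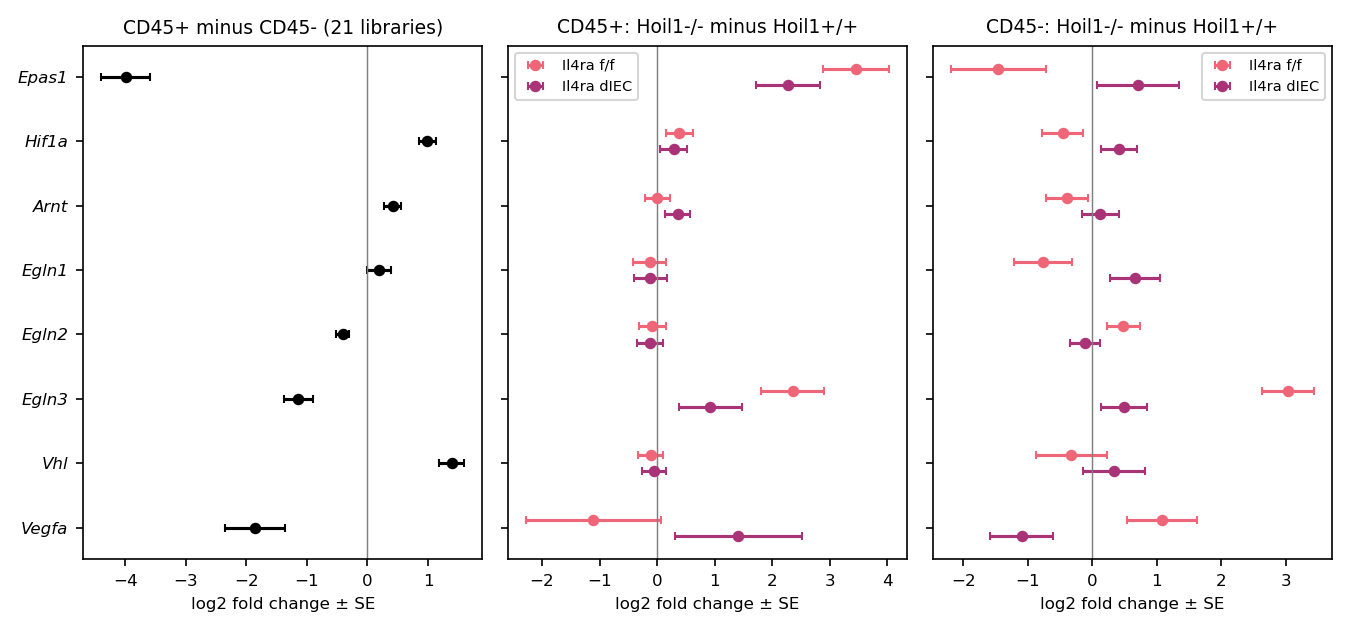
Log2 fold changes (points) with their standard errors (bars) from edgeR for the 8 genes with counts in every group, between fractions over 21 libraries (left) and between Hoil1-/- and Hoil1+/+ within each Il4ra genotype in CD45+ (middle) and CD45- cells (right). Epas1 is at -3.99 between the fractions and at 3.45 and 2.27 in CD45+ cells, and Egln3 at 3.04 in CD45- Il4ra f/f cells. Epas1 and Egln3 were chosen for attention from these libraries, so their points and bars are a description with no test.

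Counting the 7 tested genes, 5 passed between CD45+ and CD45- cells: Hif1a, Vhl and Arnt were higher and Egln2 and Vegfa lower in CD45+ cells. Egln1 and Hif3a did not pass. With 49.6% of all genes passing in that comparison, calls are common between these 2 populations, and the count of 5 is no result about the pathway.

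Between genotypes none of the 7 passed edgeR's quasi-likelihood test in any of 10 comparisons. In CD45+ cells the share of all genes that passed was 0.00587% for the Hoil1 difference averaged over Il4ra genotypes, 0% with Il4ra f/f and 0% with Il4ra ΔIEC, 0.00587% for the averaged Il4ra difference and 0% for the interaction. In CD45- cells it was 0.0182% for the averaged Hoil1 difference, 0.0365% with Il4ra f/f, 0.00608% with Il4ra ΔIEC, 0% for the averaged Il4ra difference and 0% for the interaction. At an unadjusted p under 0.05 the number of the 7 genes per comparison was 0 to 3, with 3 in the CD45- interaction, in which 20.7% of all genes were under that level. DESeq2 and the likelihood ratio test of edgeR each called 1 of the 7, Hif3a, for the CD45- Hoil1 difference with Il4ra f/f (beside 613 and 350 of all genes) and for the CD45- interaction (beside 1466 and 1223), and none in the other 8.

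In CD45+ cells the averaged Hoil1 difference was 0.34 (SE 0.16, adjusted p = 0.7835, edgeR's quasi-likelihood test with Benjamini-Hochberg adjustment) for Hif1a and 0.15 (SE 0.80, adjusted p = 1) for Vegfa on the log2 scale. For Arnt, Vhl, Egln1 and Egln2 it lay between -0.12 and 0.18. In CD45- cells the same difference lay between -0.13 and 0.18 for the 6 of these genes. Averaged over Il4ra genotypes, Epas1 was at 2.86 (SE 0.40) in CD45+ and -0.38 (SE 0.47) in CD45- cells, and Egln3 at 1.64 (SE 0.38) and 1.77 (SE 0.27).

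The remaining 59 genes listed for the pathway fall into 5 groups. None passed edgeR's quasi-likelihood test in any comparison between genotypes. At an unadjusted p under 0.05 their number per comparison was 3 to 17 of 57 or 58 tested, beside 5.27% to 20.7% of all genes. The 17 belonged to the CD45- interaction, with 20.7% of all genes, and the next highest count, 16, to the CD45- Hoil1 difference with Il4ra f/f, with 13.1%. DESeq2 called at most 12 and the likelihood ratio test at most 7, both in the CD45- interaction, in which they called 1466 and 1223 of all 16453 genes.

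Genes of glucose uptake and glycolysis, classical HIF-1 targets, were counted in CD45- cells where Egln3 was highest. This comparison was thus picked from Egln3 values of the same libraries, so the counts are a description and no separate result. The genes share the same few libraries and were not counted as independent. Of 16 genes, 14 had a log2 fold change above 0 between Hoil1-/- and Hoil1+/+ with Il4ra f/f, their median was 0.77 against -0.17 for all genes tested, and 9 had an unadjusted p under 0.05, all with higher values in Hoil1-/-, beside 13.1% of all genes. DESeq2 called 3 of them, beside 613 of all 16453 genes tested, and the likelihood ratio test 1, beside 350. The epithelial sum was 16363 and 15069 CPM in the kept Hoil1-/- libraries of this comparison and 2415 to 9024 CPM in Hoil1+/+, and the tuft cell sum 420 and 566 CPM against 22.9 to 57.0 CPM. Their part in the glycolysis values was not tested. With Il4ra ΔIEC the median was -0.27 against 0.06 for all genes, and 5 of 16 were above 0.

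Slc16a3 had the lowest p of this list, and it and Ldha were named after their values were seen. Its kept libraries read 47.8 and 63.9 CPM in CD45- Hoil1-/-Il4ra f/f and 9.85 to 13 CPM in Hoil1+/+Il4ra f/f, with 18.8 CPM in the left-out library. The log2 fold change was 2.31 (SE 0.41, adjusted p = 0.103, edgeR's quasi-likelihood test with Benjamini-Hochberg adjustment). Ldha, which makes lactate from pyruvate, read 1351 and 1484 CPM against 469 to 580 CPM, with 385 CPM in the left-out library, and had a log2 fold change of 1.45 (SE 0.44, adjusted p = 0.315). With the left-out library added, 2 of the 16 genes had an unadjusted p under 0.05 in this comparison.

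**Figure D5:**
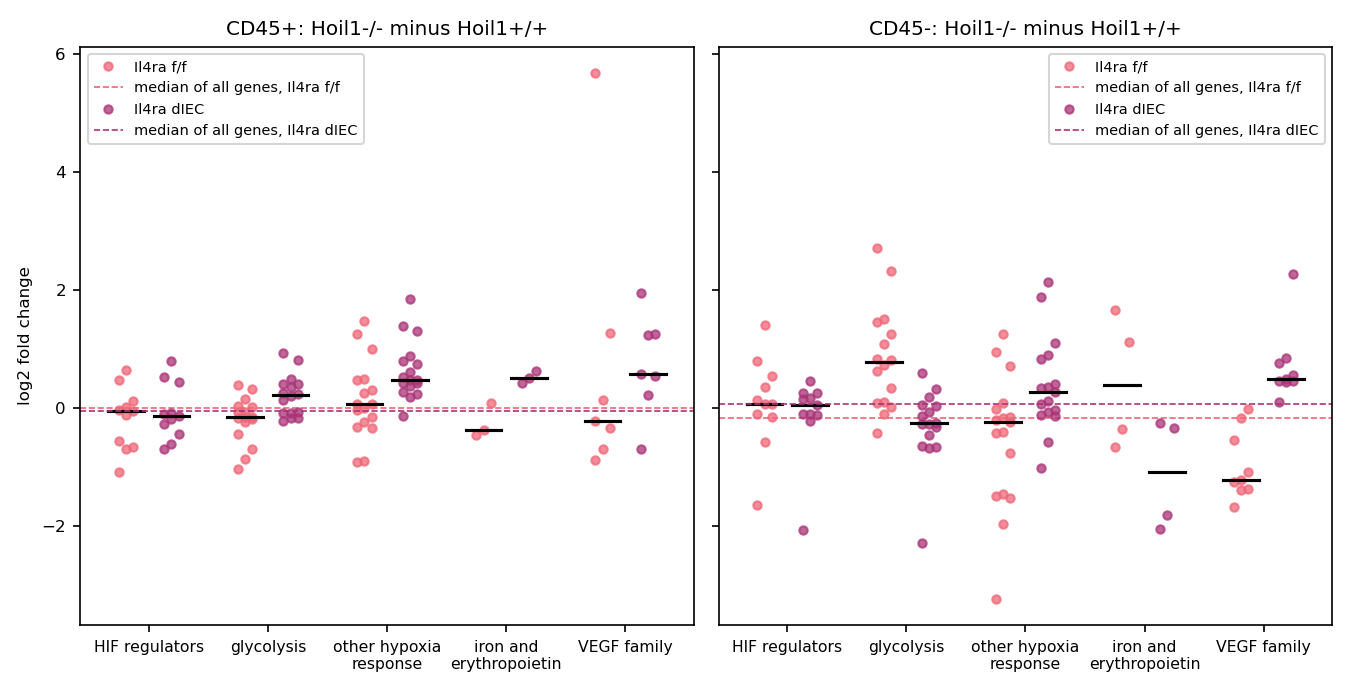
Log2 fold change of each gene of 5 HIF pathway lists between Hoil1-/- and Hoil1+/+ in CD45+ (left) and CD45- cells (right), by Il4ra genotype, with the list median as a black bar and the median of all genes as a dashed line. Genes with no count in a whole group are not drawn. In CD45- cells with Il4ra f/f the glycolysis median is 0.77 and the VEGF family median -1.23, and none of these genes passed the test.

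The VEGF family comprises the ligands of vessel growth and their receptors on endothelium. In CD45- cells with Il4ra f/f all 9 had log2 fold changes below 0 (median -1.23, against -0.17 for all genes tested). With Il4ra ΔIEC all 9 were above 0 (median 0.49, against 0.06 for all genes). None had an unadjusted p under 0.05 in either. The 9 genes share the same few libraries and were not counted as independent. With the left-out library added, their median with Il4ra f/f was -0.25 and 2 of 9 were above 0. The endothelial sum was 2297 and 4718 CPM in the kept Hoil1-/-Il4ra f/f libraries and 3874 to 13491 CPM in Hoil1+/+Il4ra f/f, 6538 to 16093 CPM in Hoil1-/-Il4ra ΔIEC and 3778 to 12241 CPM in Hoil1+/+Il4ra ΔIEC. Its part in these values was not tested.

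Between the fractions, 8 of the 9 VEGF family genes passed, 7 lower in CD45+ cells and Pgf, placental growth factor, higher. In that comparison 49.6% of all genes tested passed, so the counts for this list and the lists below are no result about them. Pgf averaged 19.9 CPM in CD45+ against 7.36 CPM in CD45- cells (log2 fold change 1.27, SE 0.49, adjusted p = 0.0393, edgeR's quasi-likelihood test with Benjamini-Hochberg adjustment). Flt4, the receptor of lymphatic vessels, averaged 1.05 against 88.1 CPM and its ligand Vegfc 0.580 against 42.1 CPM. Vegfd was counted in 2 of 10 CD45+ libraries and averaged 2.28 CPM in CD45- cells.

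Among 11 other regulators of HIF, 2 were higher and 1 lower in CD45+ cells, beside 49.6% of all genes passing in either direction. Cited2, which competes with HIF alpha for the coactivators p300 and CBP, averaged 141 CPM in CD45+ and 40.3 CPM in CD45- cells (3.34-fold, adjusted p = 2.67e-06, edgeR's quasi-likelihood test with Benjamini-Hochberg adjustment). Siah2, a ubiquitin ligase for prolyl hydroxylases, averaged 41.7 against 19.7 CPM and passed. Elob, a subunit of the VHL complex, averaged 71.1 against 105 CPM and passed in the other direction, opposite to Vhl itself.

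Of the 16 glycolysis genes, 2 were higher in CD45+ cells (Pfkfb3, 72.9 against 43.1 CPM, and Hk2, 91.0 against 58.8 CPM). Another 3 were lower (Tpi1, 100.0 against 362 CPM, Ldha, 366 against 749 CPM, and Pfkl, 60.7 against 84.7 CPM). Of all genes 49.6% passed in either direction. Slc2a1, the glucose transporter, did not pass (adjusted p = 0.882, edgeR's quasi-likelihood test with Benjamini-Hochberg adjustment) and was named after its values were seen.

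Of 17 other hypoxia-response genes, 3 were higher and 6 lower in CD45+ cells, beside 49.6% of all genes passing in either direction. Hmox1, the haem-degrading enzyme, averaged 46.7 CPM in CD45+ and 5.59 CPM in CD45- cells (8.91-fold, adjusted p = 8.038e-05, edgeR's quasi-likelihood test with Benjamini-Hochberg adjustment). Bhlhe40, a transcriptional repressor, and Ero1l, an oxidase of the endoplasmic reticulum, were higher by 1.71-fold and 1.68-fold. Ndrg1 averaged 17 against 242 CPM, P4ha2, a collagen prolyl hydroxylase, 1.83 against 15.0 CPM, and Adm, the vessel peptide adrenomedullin, 0.400 against 4.82 CPM.

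Of the 6 genes of iron uptake and erythropoietin, which HIF-2 is known to regulate in gut and kidney, 5 were abundant enough to test. Between the fractions 4 passed, beside 49.6% of all genes. Heph, the iron oxidase of enterocytes, averaged 1.70 CPM in CD45+ and 57.0 CPM in CD45- cells, and Tfrc, the transferrin receptor, 30.4 against 68.2 CPM. Slc40a1, the iron exporter ferroportin, averaged 10.8 against 4.56 CPM, and Slc11a2, the iron importer DMT1, 29.3 against 22.3 CPM. All 4 had adjusted p of 0.049 or less in edgeR's quasi-likelihood test with Benjamini-Hochberg adjustment. Between genotypes none of the 5 passed in either fraction.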

How the data were processed

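Sorted CD45+ and CD45- ileal cells were measured by RNA-sequencing in 24 libraries, made from 10 to 20 ng of RNA with 16 PCR cycles and no molecular identifiers. Reads were trimmed by the authors and mapped with STAR (mouse build mm10), and the deposited values are raw counts per gene from featureCounts. Strand and multi-mapping options are not given in the sources used here. Gene identifiers were given symbols from GENCODE M21. Levels are CPM, counts scaled to the library total, with TMM factors over all 24 libraries. The 3 libraries that the study left out after principal component analysis were left out of tests.

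Tests were edgeR's quasi-likelihood test (edgeR 4.0.16, R 4.3.3, TMM, filterByExpr with a minimum count of 10), with 1 model per fraction for the genotypes and 1 over both fractions, and Benjamini-Hochberg adjustment over all genes tested at a threshold of 0.05. The model was tested on simulated data. Standard errors were derived from the fold change and its F statistic, and those of Epas1 and Egln3 stand as a description alone. Replicates were numbered in accession order and the labels name no mouse, so libraries were not paired. Each p-value sets a difference between groups against the spread estimated from these libraries, some of which may share a mouse.

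The members, gene lists and tests were chosen with earlier results of these data known. The text names the 9 genes, the list genes that passed between genotypes, the 3 with the largest fold in each direction between fractions, and the 5 most like Epas1 and Egln3, of which 1 is not reported here. Genes outside that rule are marked as chosen after their values were seen. Alternatives were all libraries, DESeq2's scaling (RLE), the likelihood ratio test, DESeq2 1.42.0, no filter, no immunoglobulin genes and leaving out each library. Total counts per library ranged from 6028275 to 76807504, and floors of 3 counts cover counting error alone.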

Additional observations from a re-analysis of the deposited data

Results flagged for a closer look

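For 4 pairs of differences, the kept libraries of the compared groups did not overlap in either difference, and the 2 differences had opposite directions. The libraries are not paired. No share of all genes with such a pattern is given, so the number of pairs is no result about these genes. The difference between the 2 differences was not tested for these pairs, and each group held 2 or 3 kept libraries. With the libraries that the study left out added, each pair overlapped on at least 1 side. Values are means of the kept libraries in CPM, and differences are on the log2 scale.

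In CD45- cells Egln3 was higher with Il4ra ΔIEC than with Il4ra f/f in Hoil1+/+ (14.7 against 6.21 CPM) and lower in Hoil1-/- (20.4 against 50.6 CPM), a difference of 2.55. This pair restates the fitted interaction of Egln3 in CD45- cells (-2.54, SE 0.53) and is no separate observation. In Hoil1-/- mice Vegfa was higher with Il4ra ΔIEC than with Il4ra f/f in CD45+ cells (30.5 against 3.89 CPM) and lower in CD45- cells (22.3 against 61.2 CPM), a difference of 4.43. With Il4ra ΔIEC, Vegfa was higher in Hoil1-/- than in Hoil1+/+ CD45+ cells (30.5 against 11.4 CPM) and lower in CD45- cells (22.3 against 47.8 CPM), a difference of 2.52. In Hoil1-/- mice Egln2 was higher with Il4ra ΔIEC than with Il4ra f/f in CD45+ cells (74.1 against 56.2 CPM) and lower in CD45- cells (82.9 against 105 CPM), a difference of 0.75.

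Over all libraries the groups overlapped for Egln3 in Hoil1-/- CD45- cells (20.4 against 37.5 CPM), for Vegfa between Il4ra genotypes in Hoil1-/- CD45+ (20.4 against 4.16 CPM) and CD45- cells (22.3 against 44.2 CPM), for Vegfa between Hoil1 genotypes in CD45+ Il4ra ΔIEC cells (20.4 against 11.4 CPM), and for Egln2 in Hoil1-/- CD45+ (65.8 against 54.9 CPM) and CD45- cells (82.9 against 88.3 CPM).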

How the results depend on the processing

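Of 597 recomputed log2 fold changes, 581 kept their direction and their side of the threshold or, for Epas1 and Egln3, moved by less than the SD between libraries, and 10 changed sign. The Hoil1 difference of Vegfa in CD45+ cells was -0.089 over all libraries and -0.78 to 1.01 when each library was left out. That of Epas1 in CD45- cells was -0.72 to 0.0033 when each library was left out. The Il4ra difference of Egln3 in CD45- cells was 0.19 over all libraries and -0.14 to 0.095 when each was left out. These 3 differences were within 1 SE of 0. With all libraries the Egln3 interaction in CD45- cells was -2.12. Arnt lost its call between fractions with all libraries (log2 fold change 0.23) and without CD45- Hoil1-/-Il4ra f/f replicate 1 (0.40). The cause was not tested.

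Among the 7 tested members, the likelihood ratio test and DESeq2 each called 1 (Hif3a) for the CD45- Hoil1 difference with Il4ra f/f and 1 for the CD45- interaction. Leaving out each library gave 0 to 1 for that interaction, the 1 being Egln1 without Hoil1+/+Il4ra ΔIEC replicate 3, and 4 to 5 between fractions. Of the 59 list genes, the likelihood ratio test called 3 for the CD45+ Il4ra difference, 2 for the CD45- Hoil1 difference with Il4ra f/f and 7 for the CD45- interaction. DESeq2 called 1 for the CD45+ Hoil1 difference with Il4ra f/f, 1 with Il4ra ΔIEC, 4 for the CD45+ Il4ra difference, 1 for the averaged CD45- Hoil1 difference, 5 with Il4ra f/f and 12 for the CD45- interaction. Leaving out each library gave 0 to 1 list genes for the CD45+ Il4ra difference, the 1 without Hoil1+/+Il4ra f/f replicate 3. It gave 0 to 1 for the averaged CD45- Hoil1 difference, that with Il4ra f/f and the CD45- Il4ra difference, each with 1 when Hoil1-/-Il4ra f/f replicate 2 was left out. It gave 0 to 9 for the CD45- interaction, with 4 without Hoil1-/-Il4ra f/f replicate 2 and 9 without Hoil1+/+Il4ra ΔIEC replicate 3. With Il4ra f/f the latter omission also gave 1. Groups of 2 or 3 libraries and uneven cell mixtures limit what could be detected.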
